A study of Mus musculus with 32 samples.

Results

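The cytosolic ribosomal protein genes encode the protein parts of the ribosome that translates messenger RNA in the cytoplasm. Members were taken by symbol: Rpl or Rps followed by digits and at most 1 letter of a, x, l and y, with an optional further digit, plus Rplp0, Rplp1, Rplp2 and Rpsa, without S6 kinase genes and pseudogenes. The platform annotation held 49 such symbols on probe sets that name 1 gene. Rps4l, a pseudogene in RefSeq, was left out, which left 48 members of the 18193 genes with such a probe set. Of these, 45 passed the filter on dim signals and were tested among 13016 genes. Rplp1 was not measured by a probe set of its own, since its probe set also names the predicted gene Gm13777.

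Pristane (TMPD) is a hydrocarbon oil that causes a lasting inflammation of the peritoneal cavity in mice. RNA of mouse mesentery, the fatty membrane that carries the vessels of the gut, was measured on 32 Affymetrix Mouse Genome 430 2.0 arrays, 16 from mice given 0.5 ml of the oil into the peritoneal cavity and 16 from untreated mice. The groups were BALB/c mice at day 3 (3 arrays) with 3 untreated BALB/c arrays, F1 mice at day 3 (3 arrays) with 3 untreated F1 arrays, DBA mice at day 3 (3 arrays) with 3 untreated DBA arrays, BALB/c mice at day 18 (4 arrays) with 4 untreated BALB/c arrays, and DBA mice at day 18 (3 arrays) with 3 untreated DBA arrays. F1 mice came from BALB/c and DBA parents. Each treated group was set against untreated arrays of its strain whose titles carry the same run of codes: 1 run for BALB/c at day 18 (codes containing bmsnmix), 1 for DBA at day 18 and 1 for all day 3 groups. What these codes stand for is not given in the sources used here, and neither is whether each array had its own animal. The p-values therefore measure spread between arrays, which may be partly technical. Ages are not given in the sources used here.

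A cytosolic ribosome has a small subunit, which reads the messenger, and a large subunit, which joins amino acids. In vertebrates most ribosomal protein messengers begin with a C followed by a stretch of pyrimidines, the 5′ terminal oligopyrimidine (TOP) tract, through which mTOR signalling controls their translation as a set. Their RNA is abundant in all cells, and a growing or dividing cell makes more ribosomes. In a bulk tissue sample, more cells rich in ribosomes and more ribosomal protein RNA per cell cannot be told apart.

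The start regions of 6 members are shown because the results below turn on these genes. They also show how runs of pyrimidines near the annotated start vary among them. Each is the 100 bases around a RefSeq start on GRCm38.p6, written 5′ to 3′ on the strand of the gene, with the start at the centre. Capitals mark runs of at least 7 pyrimidines (C or T) within 25 bases of the start. The windows lie at chr9:44407664-44407763 (Rps25, plus strand), chr9:120571467-120571566 (Rpl14, plus strand), chr17:46782607-46782706 (Rpl7l1, minus strand), chr2:32961662-32961761 (Rpl12, plus strand), chr5:115559417-115559516 (Rplp0, plus strand) and chr3:90213599-90213698 (Rps27, minus strand).
Rps25: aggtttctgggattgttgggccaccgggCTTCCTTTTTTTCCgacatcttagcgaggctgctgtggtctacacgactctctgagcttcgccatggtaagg
Rpl14: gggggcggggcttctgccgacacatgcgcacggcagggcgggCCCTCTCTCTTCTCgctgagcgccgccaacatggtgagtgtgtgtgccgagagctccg
Rpl7l1: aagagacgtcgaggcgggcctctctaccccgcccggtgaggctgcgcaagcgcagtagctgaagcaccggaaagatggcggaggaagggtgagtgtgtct
Rpl12: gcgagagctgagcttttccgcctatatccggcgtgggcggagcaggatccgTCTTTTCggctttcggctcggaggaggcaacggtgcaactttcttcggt
Rplp0: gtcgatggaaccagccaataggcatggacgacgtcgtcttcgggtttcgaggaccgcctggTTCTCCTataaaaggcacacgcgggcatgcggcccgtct
Rps27: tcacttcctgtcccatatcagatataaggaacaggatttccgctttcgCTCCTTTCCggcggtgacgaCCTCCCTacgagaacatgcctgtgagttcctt

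RefSeq promoters were matched to 43 of the 48 members, in 51 windows. A run of at least 7 pyrimidines near the start stood in 29 of the 51 member windows (56.9%) and in 29.3% of all 32851 promoter windows. A C at the start itself followed by at least 4 pyrimidines, the strict form of the tract, stood in 15.7% of member windows and in 2.51% of all windows. Rpl14 and Rps27 have the strict form, while Rpl7l1, a paralog of Rpl7 whose yeast homologue is an assembly factor rather than a ribosomal protein, has no run of 7 within 25 bases of its start. The motif CCGGAAG, searched on both strands over 300 bases, stood in 41.2% of member windows and in 8.86% of all windows. That search reaches beyond the bases shown. TATAAA within 50 bases before the start on the sense strand stood in 1.96% and 2.63%, and CACGTG over 300 bases in 9.8% and 7.15%. These matches describe letters in windows and are no evidence that a factor binds. The first base of each RNA was not measured here. A window without the strict form is therefore no evidence that the messenger lacks a TOP tract.

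On the deposited linear scale, 36 of the 45 tested members had bright probe sets, with mean log2 signals from 12.66 to 14.63, and 9 had dimmer ones, from 8.74 to 10.57 (Rpl12, Rpl14, Rpl27a, Rpl37, Rpl39, Rpl7l1, Rps25, Rps27 and Rps6). For Rps25, Rpl12, Rpl14, Rps27 and Rps6 the brighter probe sets of the array name several genes and were not used. The brightness of a probe set is no measure of RNA level between genes. Rpl3l and Rpl39l, paralogs known for expression in striated muscle and testis, and Rps16 did not pass the filter. Their highest signals on any array were 67.3, 80.2 and 7.6.

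One array stood apart. On untreated BALB/c replicate 2 of the bmsnmix codes the mean log2 signal of the 45 members was 14.21, against 12.73, 12.77 and 12.75 on the other untreated BALB/c arrays of those codes and at most 13.31 on any other array. The members summed to 3.35% of all signal there and to 1.42% to 2.06% elsewhere. The same array had a 3′ to 5′ ratio of beta-actin of 2.29 against 1.29 to 1.34 on its 3 companions and a summed signal of pancreatic acinar markers of 1184538 against at most 168142. Its highest correlation with another array of its group was 0.86. Across the other 7 bmsnmix arrays the acinar mean ran from 6.61 to 13.87 on the log2 scale, against 16.85 on untreated replicate 2. The member mean on those 7 arrays lay between 12.73 and 13.01. None of them reached the acinar level of untreated replicate 2. They therefore cannot show the part of acinar signal in its member mean, which was not tested. Since all groups share 1 estimate of the spread, this array also moved the tests of the other responses: the median standard error of the members was 0.25 with it and 0.10 without it, and that of all genes 0.19 and 0.15. Each result is therefore given with all 32 arrays and without this array.

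Treated BALB/c arrays at day 3 had member means of 13.05, 13.09 and 13.16, against 12.89, 13.02 and 13.03 in untreated BALB/c mice, with no overlap and a narrow gap. Treated F1 arrays had 12.94, 12.94 and 12.68, against 12.66, 12.69 and 12.91 in untreated F1 mice, and the groups overlapped. Treated DBA arrays at day 3 had 13.26, 13.22 and 13.24, against 12.78, 12.77 and 12.96 in untreated DBA mice. DBA was thus the strain with the widest gap between treated and untreated arrays at day 3 on the deposited scale. At day 18 treated BALB/c arrays had 13.01, 12.79, 12.97 and 12.94, all above the 3 untreated arrays other than replicate 2. Treated DBA arrays at day 18 had 13.15, 13.31 and 13.23, against 13.00, 12.97 and 13.01 in untreated DBA mice, with no overlap.

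**Figure D1:**
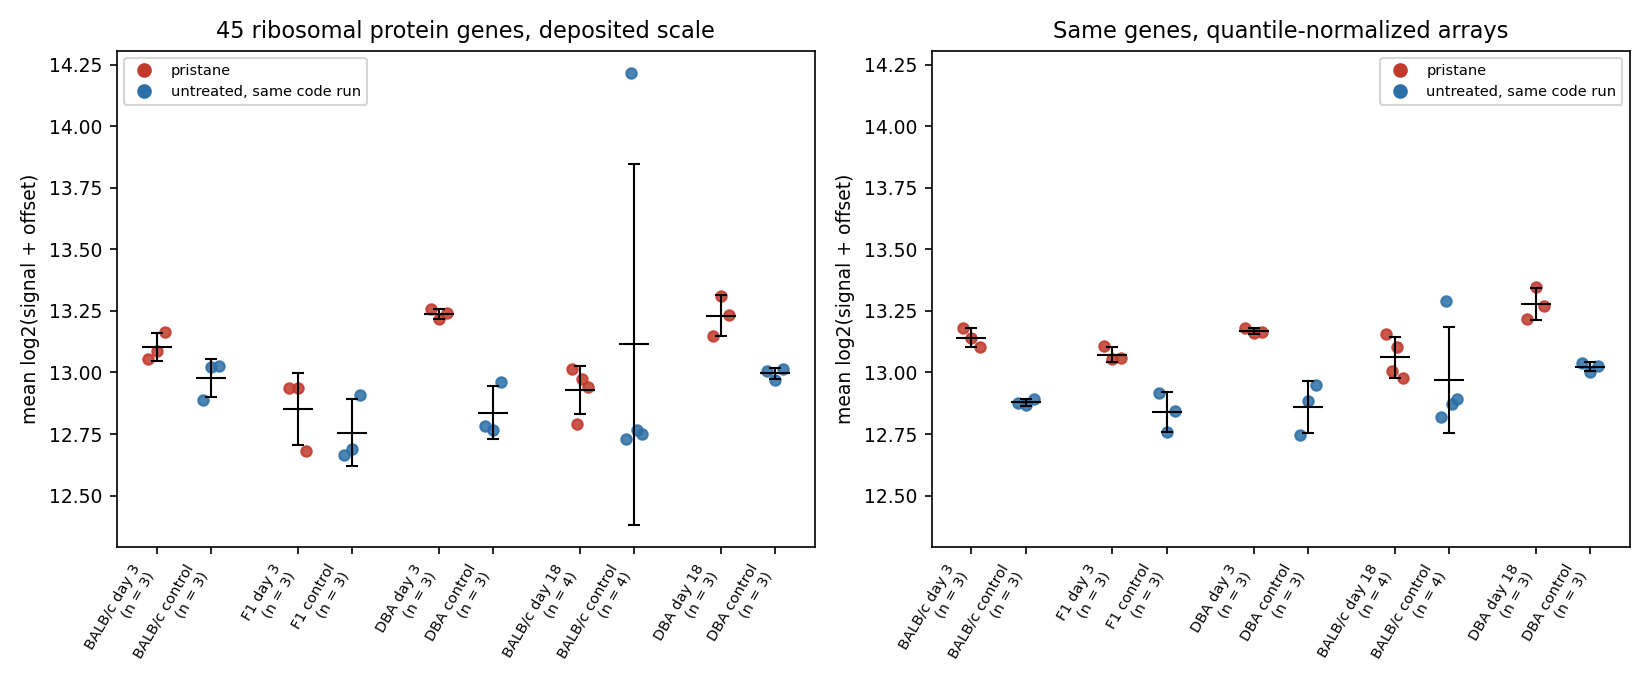
Mean log2(signal + 24.9) of the 45 tested ribosomal protein genes on each array, on the deposited scale (left) and after quantile normalization (right); red points are pristane arrays, blue points untreated arrays of the same title codes, and bars the mean and SD. Untreated BALB/c replicate 2 lies at 14.21 on the left and at 13.29 on the right, and treated arrays lie above untreated ones in every day 3 group on the right.

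The responses were tested with limma on log2(signal + 24.9), with Benjamini-Hochberg adjustment over 13016 genes and a threshold of 0.05 on the adjusted p. With all 32 arrays, few members passed. At day 3 in BALB/c mice 3 of 45 rose and none fell, where 18.3% of all genes tested rose and 17.2% fell. The median log2 change of the members was 0.08 and that of all genes -0.01. In F1 mice at day 3 3 members rose and none fell, where 18.6% of all genes rose and 18% fell, and the medians were 0.07 for members and -0.04 for all genes. In DBA mice at day 3 7 members rose and none fell, where 16.4% of all genes rose and 13.4% fell, and the medians were 0.37 and 0.00. At day 18 in BALB/c mice 2 members rose and none fell, where 21.7% of all genes rose and 22.2% fell, and the medians were -0.24 and -0.03. At day 18 in DBA mice 5 members rose and none fell, where 22.4% of all genes rose and 25% fell, and the medians were 0.20 and -0.04. The share of members that rose was 6.67%, 6.67%, 15.6%, 4.44% and 11.1% in that order. It was close to the share of all genes in DBA mice at day 3 and below it in the other responses. An unadjusted p under 0.05 was reached by 4, 4, 12, 4 and 7 of the 45 members in the same order, and by 5672, 5830, 5126, 6566 and 6959 of the 13016 genes.

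Without untreated BALB/c replicate 2 the counts were larger. At day 3 9 members rose in BALB/c mice, 10 in F1 mice and 34 in DBA mice, with none lower, where 22.3%, 22.5% and 21.1% of all genes rose and 21.9%, 22.7% and 17.8% fell. The DBA share, 75.6% of members, was above the share of all genes, and the BALB/c and F1 shares, 20% and 22.2%, were close to it. At day 18 14 members rose in BALB/c mice, where 22.9% of all genes rose and 25.3% fell, and the median log2 change was 0.16, with 38 of 45 members positive. With all arrays 37 of 45 were negative there, so 1 untreated array set the sign of the BALB/c median at day 18. In DBA mice at day 18 18 members rose and 1 fell without that array, where 26.6% of all genes rose and 28.8% fell. By subunit, 19 of 24 large-subunit and 15 of 21 small-subunit members rose in DBA mice at day 3 without the array, with median changes of 0.35 and 0.40.

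**Figure D2:**
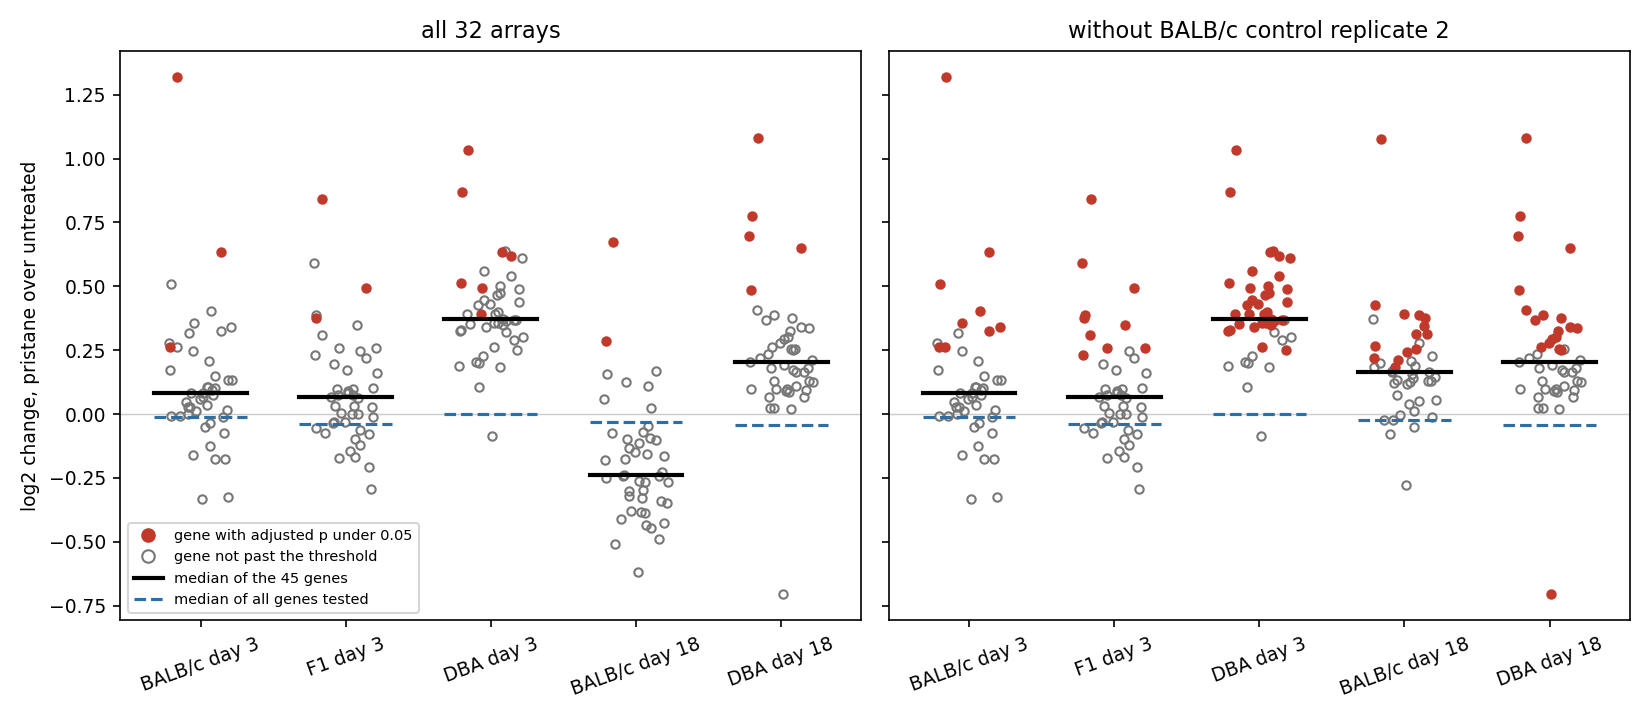
Log2 change of each of the 45 ribosomal protein genes, pristane over untreated, in the 5 responses with all 32 arrays (left) and without untreated BALB/c replicate 2 (right); filled red points have an adjusted p under 0.05, black bars are the median of the members and dashed blue bars that of all genes tested. The BALB/c median at day 18 is -0.24 on the left and 0.16 on the right, and 34 of 45 points are filled for DBA mice at day 3 on the right.

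Counts of members whose groups do not overlap need no estimate of the spread. All treated arrays lay above all untreated arrays of the same codes for 37 of 45 members in DBA mice at day 3, where 27.3% of all genes did, and for 31 members in DBA mice at day 18, where 28.6% did. The count was 15 in BALB/c mice at day 3 (26.7% of all genes) and 9 in F1 mice (25.5%). In BALB/c mice at day 18 it was 1 with all arrays (17.9%) and 14 without untreated replicate 2 (23.7%). The only member with all treated arrays below all untreated ones in any response was Rps27, in DBA mice at day 18, where 33% of all genes did so.

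Rps25, a small-subunit protein known for its part in internal initiation on some viral RNAs, rose in all 5 responses on the probe set used. For Rps25, as for Rpl14 and Rpl12 below, that set is a dim one. The brighter sets of these genes name several genes and were not tested. Rps25 signals at day 3 were 1246, 1259 and 1399 in treated BALB/c mice, against 538, 504 and 475 in untreated ones. They were 893, 1100 and 942 in treated F1 mice, against 565, 441 and 605 in untreated ones, and 1223, 891 and 828 in treated DBA mice, against 430, 448 and 504 in untreated ones. No treated array overlapped an untreated one at day 3. At day 18 they were 1277, 933, 889 and 1172 in treated BALB/c mice, against 454, 1540, 443 and 575 in untreated ones, where the 1540 belongs to the array that stood apart. In DBA mice at day 18 they were 990, 1435 and 1200 in treated mice, against 581, 578 and 499 in untreated ones. The log2 changes were 1.32 ± 0.27 (SE; adjusted p 0.000424) in BALB/c mice, 0.84 ± 0.27 (0.0166) in F1 mice and 1.03 ± 0.27 (0.00509) in DBA mice at day 3. At day 18 they were 0.67 ± 0.24 (0.0218) in BALB/c and 1.08 ± 0.27 (0.0018) in DBA mice by limma. The BALB/c value at day 18 was 1.08 ± 0.14 without the array that stood apart (adjusted p 1.12e-06). It was the largest increase among the members in every response. It no longer passed in BALB/c mice at day 18 without untreated replicate 1 (0.51, adjusted p 0.0956), 3 (0.50, 0.101) or 4 (0.62, 0.0567) or treated replicate 1 (0.58, 0.0749) or 4 (0.62, 0.0573), nor in F1 mice without treated replicate 2 (0.76, 0.0613) or untreated replicate 2 (0.71, 0.0808).

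Rpl7l1, the Rpl7 paralog, also rose in all 5 responses, by less. Its signals were 2150, 1975 and 2021 in treated BALB/c mice at day 3, against 1741, 1656 and 1721 in untreated ones. They were 1776, 1755 and 1604 in treated F1 mice, against 1340, 1319 and 1280 in untreated ones, and 1630, 1507 and 1535 in treated DBA mice, against 1188, 963 and 1106 in untreated ones. The groups did not overlap at day 3, and untreated BALB/c mice were above untreated DBA mice. At day 18 the signals were 1712, 1629, 1697 and 1504 in treated BALB/c mice, against 1423, 1164, 1353 and 1423 in untreated ones, and 1449, 1804 and 1780 in treated DBA mice, against 1021, 1253 and 1304 in untreated ones. On the array that stood apart Rpl7l1 lay below its 3 companions, as did Rps9, while the other 43 tested members lay above theirs. The log2 changes at day 3 were 0.26 ± 0.10 (adjusted p 0.0452) in BALB/c mice, 0.38 ± 0.10 (0.00456) in F1 mice and 0.51 ± 0.10 (0.000348) in DBA mice by limma. At day 18 they were 0.28 ± 0.09 (0.00946) in BALB/c and 0.48 ± 0.10 (0.000268) in DBA mice. The BALB/c call at day 3 was lost in 21 of 46 alternative settings, without any of the 6 arrays of that comparison among them (adjusted p 0.0605 to 0.146). With the mean over its probe sets the calls were lost in all responses but that of DBA mice at day 3. Its other kept probe sets did not all move alike: the next brightest, with a mean log2 signal of 10.37, changed by 0.13, 0.44 and 0.39 in BALB/c, F1 and DBA mice at day 3, and the dimmest, at 8.17, by 0.04, -0.22 and 0.30.

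Rpl14, a large-subunit protein, rose in all 3 strains at day 3 and in DBA mice at day 18. Its signals at day 3 were 344, 322 and 224 in treated BALB/c mice, against 183, 180 and 175 in untreated ones. They were 580, 516 and 500 in treated F1 mice, against 385, 348 and 377 in untreated ones, and 1136, 1059 and 1163 in treated DBA mice, against 664, 809 and 692 in untreated ones. The lowest treated array lay above the highest untreated one in each strain. The log2 changes were 0.63 ± 0.17 (adjusted p 0.00425) in BALB/c mice, 0.49 ± 0.17 (0.0233) in F1 mice and 0.62 ± 0.17 (0.00658) in DBA mice by limma. At day 18 the signals were 807, 910 and 958 in treated DBA mice, against 566, 541 and 568 in untreated ones, a change of 0.65 ± 0.17 (adjusted p 0.00244). In BALB/c mice at day 18 they were 235, 184, 249 and 183 in treated mice, against 140, 278, 145 and 203 in untreated ones, and the groups overlapped. That change was 0.17 ± 0.15 (adjusted p 0.369) with all arrays and 0.35 ± 0.13 (0.0273) without untreated replicate 2. The F1 call was lost without treated replicate 1 (0.43, adjusted p 0.0876) or untreated replicate 2 (0.45, 0.0775).

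**Figure D3:**
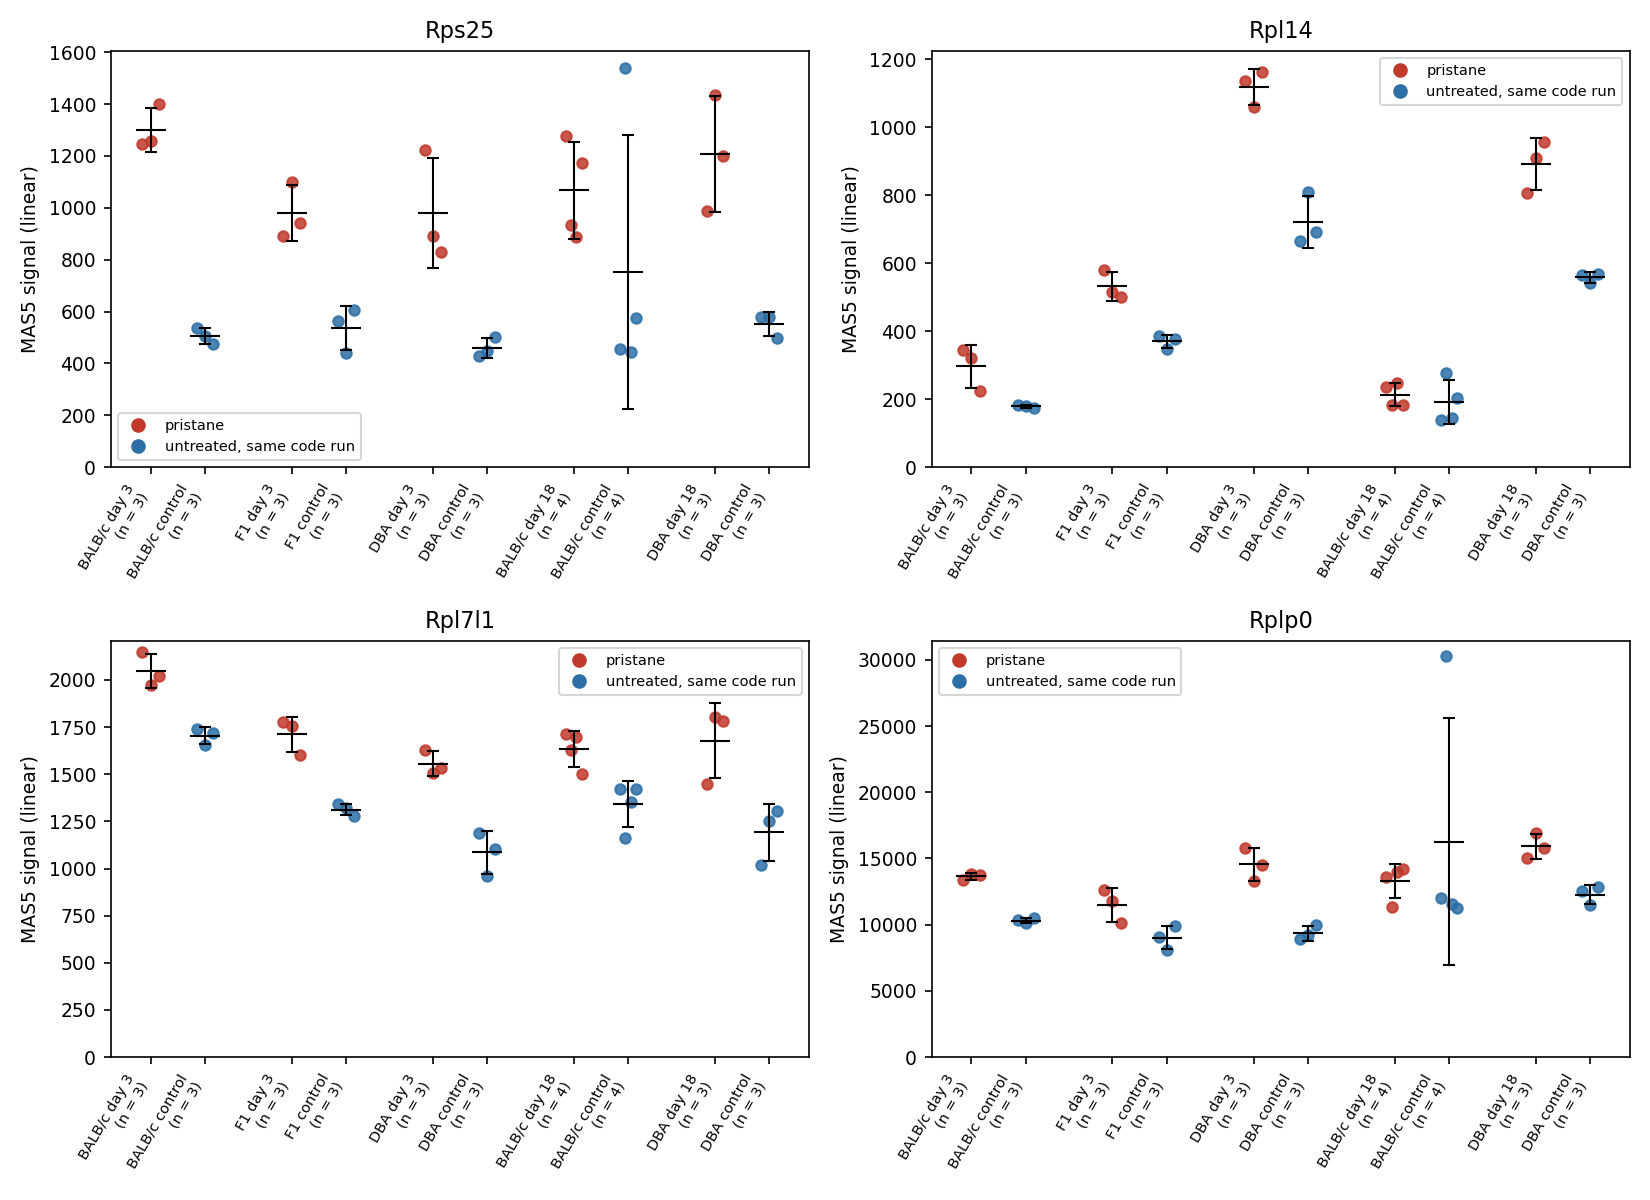
MAS5 signals on the deposited linear scale of Rps25, Rpl14, Rpl7l1 and Rplp0 on each array, pristane arrays (red) left of the untreated arrays of the same title codes (blue), with mean and SD. Rps25 lies between 828 and 1435 on treated arrays and, leaving out 1 array at 1540, between 430 and 605 on untreated ones; Rpl14 follows a strain order, with DBA above F1 above BALB/c.

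Rpl12 and Rplp0 form the base of the stalk, the part of the large subunit that binds elongation factors, and Rplp2 is 1 of the acidic proteins that Rplp0 carries. Rpl12 signals at day 3 were 490, 434 and 447 in treated DBA mice, against 196, 252 and 274 in untreated ones, a change of 0.87 ± 0.21 (adjusted p 0.00226), and 0.48 (0.0925) with untreated arrays pooled over codes. At day 18 they were 607, 978 and 707 in treated DBA mice, against 478, 399 and 411 in untreated ones, a change of 0.77 ± 0.21 (0.00307) by limma. In BALB/c mice at day 3 the change was 0.51 ± 0.21 (0.0577), in F1 mice 0.39 ± 0.21 (0.151) and in BALB/c mice at day 18 0.16 ± 0.18 (0.506). Without the array that stood apart Rpl12 rose in all 5 responses, by 0.39 to 0.87.

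Rplp0, whose RNA is often used as a constant standard, had 15817, 13324 and 14507 in treated DBA mice at day 3, against 8881, 9189 and 9968 in untreated ones, a rise of 0.64 ± 0.22 (adjusted p 0.0271 by limma). It did not pass without treated replicate 1 (0.102) or 3 (0.058) or untreated replicate 4 (0.079) or 5 (0.0648), nor with untreated arrays pooled over codes (0.115). At day 3 it had 13345, 13853 and 13779 in treated BALB/c mice, against 10329, 10144 and 10465 in untreated ones, a gap wider than the spread of either group. Treated and untreated arrays did not overlap in F1 mice at day 3 or in DBA mice at day 18 either. The changes were 0.40 ± 0.22 (0.153) in BALB/c and 0.35 ± 0.22 (0.22) in F1 mice at day 3, and 0.37 ± 0.22 (0.16) in DBA mice at day 18, and all 3 passed without untreated BALB/c replicate 2, with adjusted p of 0.000921, 0.00341 and 0.00135. In BALB/c mice at day 18 the signals were 13603, 11359, 13966 and 14238 in treated mice, against 11992, 30281, 11562 and 11277 in untreated ones, and the change was 0.19 ± 0.09 (0.0757) without the array at 30281. Rplp2 passed in none of the responses, with changes from -0.26 to 0.18 and adjusted p from 0.158 to 0.933.

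Rpsa is a small-subunit protein also known as the laminin receptor precursor. At day 3 it had 12948, 12373 and 12197 in treated DBA mice, against 7557, 8606 and 9332 in untreated ones, and 17247, 16991 and 16518 in treated BALB/c mice, against 12718, 12858 and 14116 in untreated ones. Neither pair of groups overlapped. With all arrays its changes were 0.36 ± 0.22 (adjusted p 0.215) in BALB/c mice, 0.26 ± 0.22 (0.371) in F1 mice and 0.56 ± 0.22 (0.051) in DBA mice at day 3 and 0.39 ± 0.22 (0.146) in DBA mice at day 18. Without the array that stood apart it rose in all 5 responses, with adjusted p from 3.42e-05 to 0.0446, and the BALB/c change at day 18 was 0.21 in place of -0.13. The members that rose in all 5 responses without that array were Rps25, Rpl7l1, Rpl14, Rpl12 and Rpsa, and 9 of 45 rose in none.

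Among the bright members, Rps3a1 and Rps9 of the small subunit rose in DBA mice at day 3. Rps3a1 had 21478, 21892 and 21591 in treated DBA mice, against 14586, 15283 and 16290 in untreated ones, a change of 0.49 ± 0.18 (adjusted p 0.0406 by limma). That call was lost without any 1 of its 6 arrays (adjusted p 0.0609 to 0.114), without the dim filter (0.0615) and with untreated arrays pooled over codes (0.0627). Rps9 had 16811, 16722 and 16247 in treated DBA mice, against 11616, 12069 and 14376 in untreated ones, a change of 0.39 ± 0.09 (0.0021), which did not pass under quantile normalization (0.31, adjusted p 0.058) or with untreated arrays pooled over codes (0.19, 0.188). Neither group pair overlapped. Rps3a1 changed by 0.08 and 0.10 and Rps9 by 0.03 and 0.03 in BALB/c and F1 mice at day 3, none past the threshold. The 3 brightest members, Rpl41, Rps29 and Rplp2, passed in no response with or without the array that stood apart. After quantile normalization Rpl41 and Rps29 rose in BALB/c mice, by 0.24 and 0.17 at day 3 and by 0.20 and 0.31 at day 18. Rpl41 changed by -0.07 ± 0.37 in BALB/c mice, -0.21 ± 0.37 in F1 mice and 0.29 ± 0.37 in DBA mice at day 3, with adjusted p from 0.609 to 0.905, and Rps29 by -0.17, -0.29 and 0.37 ± 0.32, with adjusted p from 0.427 to 0.724.

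Rpl37, a large-subunit protein, rose in DBA mice at day 18, with 2656, 3402 and 3198 in treated mice, against 2117, 1542 and 2047 in untreated ones. Its change was 0.70 ± 0.27 (adjusted p 0.0347), a call lost without treated replicate 2 (0.109) or 3 (0.0846) or untreated replicate 2 (0.143), and 0.19 ± 0.27 (0.652) in DBA mice at day 3. Rps27, a small-subunit protein, went the other way at day 18 in DBA mice, with 451, 409 and 489 in treated mice, against 700, 897 and 664 in untreated ones. That change of -0.71 passed without the array that stood apart (SE 0.27, adjusted p 0.0289) and not with it (SE 0.33, 0.0787). The untreated DBA arrays of the day 3 run had 396, 426 and 730, and 2 of them lay within or below the range of the treated day 18 arrays. Rps6, the protein that S6 kinase phosphorylates when mTOR is active, passed in no response, with changes from -0.18 to 0.32 and adjusted p from 0.13 to 0.922.

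Of the paralogs, Rpl22l1, the copy of Rpl22, had 8260, 7656 and 6882 in treated DBA mice at day 3, against 6175, 5247 and 6264 in untreated ones. Its change of 0.37 passed without the array that stood apart (adjusted p 0.0126) and not with it (0.255). Its change in BALB/c mice at day 18 was 0.03 (adjusted p 0.936) with all arrays and 0.39 (0.00392) without that array. Rps27l, a paralog of Rps27 that is a target of p53, did not pass in any response, with changes from -0.24 to 0.11 with all arrays. Rps4x and Rpl39 are the 2 members on the X chromosome. All 3 treated F1 arrays had Xist signals of 12294 to 16808 and all 3 untreated F1 arrays 55.0 to 107, so that sex and treatment cannot be told apart in F1 mice. The F1 changes of Rps4x and Rpl39 were -0.14 ± 0.26 (adjusted p 0.703) and -0.12 ± 0.36 (0.825).

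The array measures 20 of the members by more than 1 probe set, 91 in all. When every probe set was tested on its own, bright and dim sets differed in how often they passed with all arrays: of the 27 sets under a mean log2 signal of 12, 7, 9, 8, 5 and 11 rose in BALB/c, F1 and DBA mice at day 3 and in BALB/c and DBA mice at day 18. Of the 64 brighter sets 0, 1, 6, 0 and 1 did. Without untreated BALB/c replicate 2 the dim sets gave 10, 12, 12, 10 and 12 and the bright sets 18, 15, 51, 24 and 28. The share of all kept probe sets that rose, bright or dim, was not counted, so these counts cannot be set against it. Sets of the same gene gave different sizes. A dim Rps9 set, with a mean log2 signal of 8.38, rose by 1.15, 0.79, 0.84, 0.91 and 0.98 in that order, with adjusted p from 4.61e-06 to 5e-04, while the bright set, at 13.81, changed by 0.03 to 0.39. A dim Rpl41 set, at 8.74, rose by 0.91, 0.47 and 0.83 at day 3, where the bright set changed by -0.07, -0.21 and 0.29. Which transcripts each set measures was not tested.

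**Figure D4:**
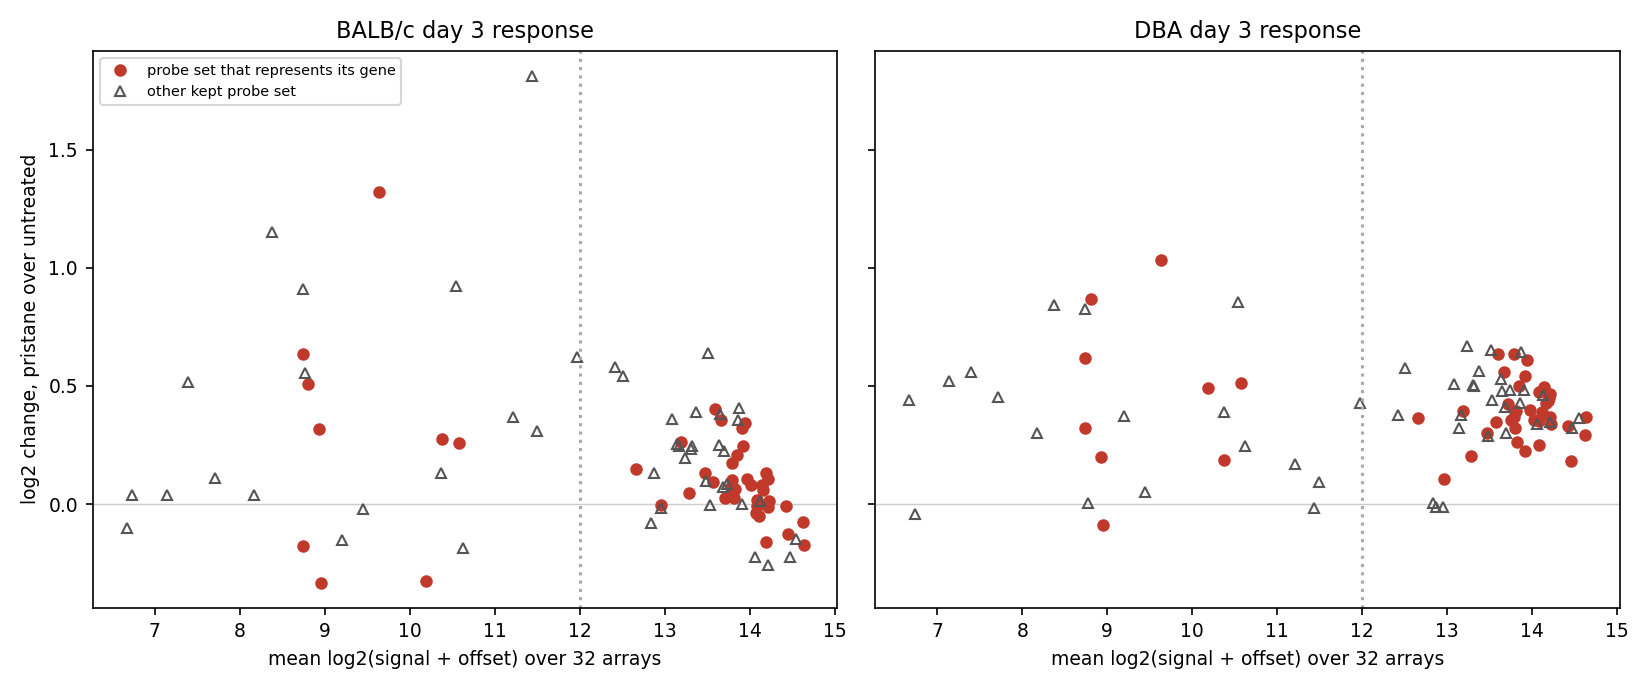
Log2 change of each kept probe set of the ribosomal protein genes in BALB/c mice (left) and DBA mice (right) at day 3, pristane over untreated, against its mean log2(signal + 24.9) over 32 arrays; red points represent their gene in the tests, open triangles are other sets of the same genes, and the dotted line marks 12. In BALB/c mice the sets right of the line centre on 0.09 and those left of it on 0.28, and in DBA mice both centre on 0.39.

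How large the members' response was at day 3 in each strain depended on how the arrays were scaled. As deposited, every array had been scaled to a trimmed mean of 500, and the medians were 0.08 in BALB/c mice, 0.07 in F1 mice and 0.37 in DBA mice. After quantile normalization they were 0.24, 0.21 and 0.27, and 24, 19 and 25 members rose. The share of all genes that rose under that scaling was not counted, so these counts cannot be set against it. Most members sit at the top of the signal range, and the top differed between groups: the top percentile of signal began at 10851 ± 425 in treated and 12077 ± 679 in untreated BALB/c mice, 9666 ± 724 and 10590 ± 1146 in treated and untreated F1 mice, and 11193 ± 204 and 11314 ± 634 in treated and untreated DBA mice at day 3 (SD, n = 3 each). At day 18 quantile normalization gave medians of 0.12 in BALB/c and 0.21 in DBA mice, and without untreated BALB/c replicate 2 as well 0.18 and 0.20. Rplp0 rose in all 3 strains at day 3 under quantile normalization, by 0.55 in BALB/c mice, 0.55 in F1 mice and 0.62 in DBA mice, and Rpsa by 0.54, 0.47 and 0.57. Median centring gave 0.04, 0.09 and 0.32 at day 3, close to the deposited scale.

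**Figure D5:**
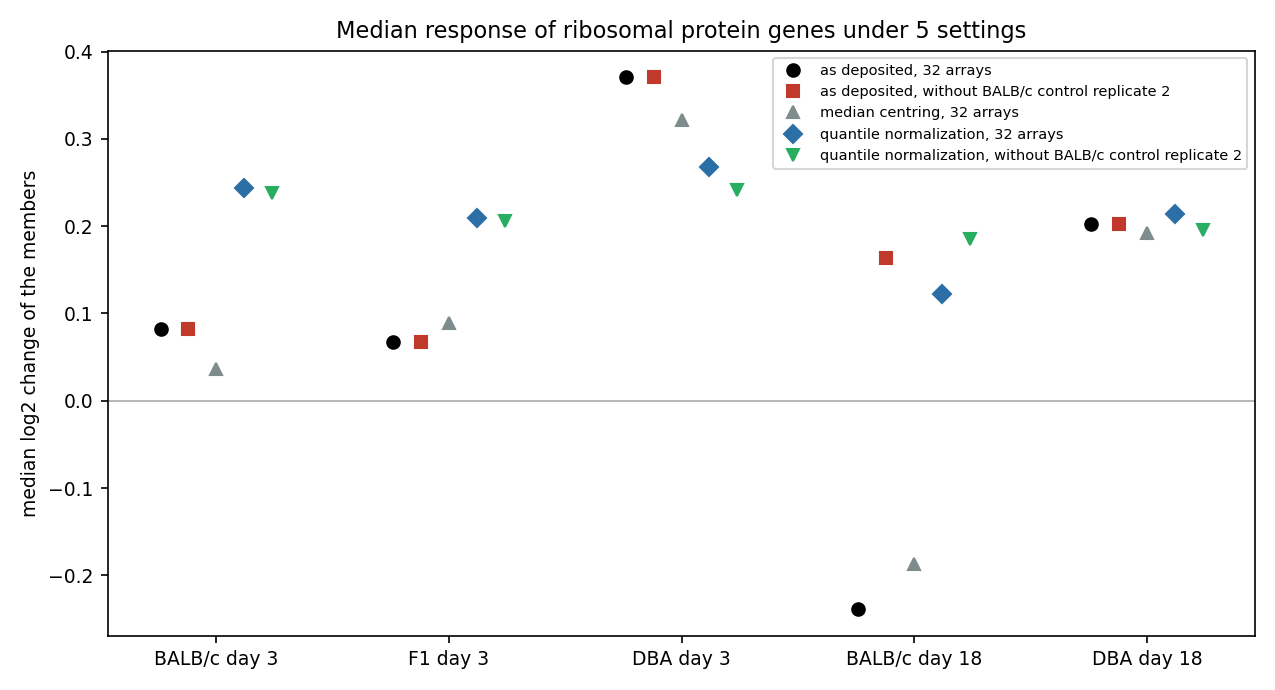
Median log2 change of the 45 ribosomal protein genes, pristane over untreated, in each response under 5 settings: as deposited with all 32 arrays, as deposited without untreated BALB/c replicate 2, median centring, quantile normalization, and quantile normalization without that array. The day 3 medians lie from 0.04 to 0.37 on the deposited and centred scales and from 0.21 to 0.27 after quantile normalization.

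The difference between responses was tested directly. With all 32 arrays no member passed in any of 6 differences by limma: BALB/c minus DBA at day 3 and at day 18, F1 minus BALB/c and F1 minus DBA at day 3, and day 18 minus day 3 in BALB/c and in DBA mice, where 0.492%, 1.01%, 0.238%, 2.01%, 0.361% and 4.18% of all genes did. An unadjusted p under 0.05 was reached by 1, 3, 0, 1, 2 and 0 of the 45 members and by 1285, 2101, 1139, 1675, 1508 and 2393 of the 13016 genes. Without untreated BALB/c replicate 2 it was reached by 23, 2, 1, 27, 1 and 5 members and by 1929, 2269, 1702, 2427, 1774 and 3213 genes. On the deposited scale 40 of 45 differences between BALB/c and DBA mice at day 3 were negative, with a median of -0.29 (-0.01 over all genes), and 43 of 45 between F1 and DBA mice, with a median of -0.34 (-0.04 over all genes). After quantile normalization those medians were -0.02 and -0.07. The differences of BALB/c and of F1 from DBA mice at day 3 share the treated as well as the untreated DBA arrays. Other differences share arrays too, so the differences are not independent of each other. Without untreated BALB/c replicate 2, 5 members responded less in F1 than in DBA mice (4.09% of all genes differed): Rps2 by -0.57, Rps26 by -0.70, Rpl10a by -0.47, Rps4x by -0.54 and Rps3a1 by -0.40, with adjusted p from 0.0224 to 0.0475. The F1 arrays differ in sex between treatment and control, as above. Rps18 responded less at day 18 than at day 3 in DBA mice without that array, by -0.40 (adjusted p 0.0482), where 9.54% of all genes differed. These 6 genes were named after their values were seen.

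The 2 DBA responses had medians of 0.20 at day 18 and 0.37 at day 3, and the difference had a median of -0.17. The 2 BALB/c responses had -0.24 at day 18 and 0.08 at day 3 with all arrays, and 0.16 and 0.08 without untreated replicate 2. Days and title codes change together, so time and whatever the codes stand for cannot be told apart. Sex changed with them too. Xist signals were 16852 to 26178 on all BALB/c and DBA arrays of the day 3 run. In the day 18 runs every group held arrays at 43.9 to 120 and arrays at 12274 to 30368. The part of sex in these differences was not tested. Beta-actin 3′ to 5′ ratios moved with the codes, from 1.12 to 1.35 on the arrays of the day 18 runs other than the array that stood apart, and from 1.37 to 2.87 on the arrays of the day 3 run. They were also lower on treated than on untreated arrays at day 3, at 1.88 ± 0.30 and 2.42 ± 0.28 in BALB/c, 1.56 ± 0.17 and 2.10 ± 0.04 in F1 and 1.92 ± 0.09 and 2.44 ± 0.38 in DBA mice (SD, n = 3 each). At day 18 they were 1.12 to 1.22 on treated and 1.29 to 2.29 on untreated BALB/c arrays, and 1.16 to 1.23 on treated and 1.27 to 1.35 on untreated DBA arrays, with no overlap. Their part in the members' changes was not tested.

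Untreated strains were compared within the code run of the day 3 groups, 3 arrays each. The untreated F1 arrays of this run had Xist signals of 55.0 to 107, against 19661 to 26178 on the untreated BALB/c and 17079 to 21350 on the untreated DBA arrays, so that F1 against either parent cannot be told apart from sex. Rpl14, read on a dim probe set since its brighter ones name several genes, differed most. Its signals were 664, 809 and 692 in DBA mice, 385, 348 and 377 in F1 mice and 183, 180 and 175 in BALB/c mice. The difference was 1.87 ± 0.17 in DBA against BALB/c mice (adjusted p 1.78e-08), 0.95 ± 0.17 in F1 against BALB/c mice (0.00147) and -0.91 ± 0.17 in F1 against DBA mice (0.00283) by limma. On the log2 scale the F1 mean of 8.62 lay between 9.54 in DBA and 7.67 in BALB/c mice. The same order stood in the other untreated arrays, with 541 to 568 in untreated DBA mice of the day 18 run and 140 to 278 in BALB/c mice of the bmsnmix codes. Rpl7l1 ran the other way, at 10.11 ± 0.15 in DBA, 10.39 ± 0.03 in F1 and 10.76 ± 0.04 in BALB/c mice (mean log2 signal, SD), with differences of -0.64 in DBA (adjusted p 8.33e-05) and -0.37 in F1 mice (0.0436) against BALB/c mice.

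These were the calls among 45 members with all arrays, where 7.68% of all genes differed between DBA and BALB/c, 2.67% between F1 and BALB/c and 1.26% between F1 and DBA mice. The median difference of the members was -0.17 for DBA against BALB/c mice, -0.26 for F1 against BALB/c mice and -0.09 for F1 against DBA mice. Without untreated BALB/c replicate 2 the shares of all genes were 12.7% for DBA and 5.69% for F1 against BALB/c mice. Rpsa was then lower in DBA mice, by -0.64 (adjusted p 2.03e-05), with 7557, 8606 and 9332 in DBA mice and 12718, 12858 and 14116 in BALB/c mice. Rpl12 (-0.63) and Rps2 (-0.44) were lower and Rps14 (0.40) higher in DBA mice under the same condition. Rpl13a, Rps19, Rps3a1, Rps9 and Rpsa were then lower in F1 than in BALB/c mice, by -0.30 to -0.35, where strain and sex cannot be told apart. These genes too were named after their values were seen.

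Other messengers with a TOP tract were read from a list of 19 genes, 18 of them tested. With all arrays 18.3%, 18.6%, 16.4%, 21.7% and 22.4% of all genes rose in the 5 responses, in the order given next. In that order 17.2%, 18%, 13.4%, 22.2% and 25% fell. Without the array that stood apart 22.3%, 22.5%, 21.1%, 22.9% and 26.6% rose and 21.9%, 22.7%, 17.8%, 25.3% and 28.8% fell. A count near these shares, here or in the lists below, is no result about its list. With all arrays 3, 3, 5, 4 and 4 rose and 0, 1, 0, 2 and 1 fell in BALB/c, F1 and DBA mice at day 3 and BALB/c and DBA mice at day 18, and the median changes were 0.14, 0.09, 0.29, -0.13 and 0.14. Without the array that stood apart 6, 4, 10, 5 and 7 rose, and the BALB/c median at day 18 was 0.05. Gas5, a non-coding host of small nucleolar RNAs, rose in all 5, by 0.68, 0.59, 0.63, 0.46 and 0.52. Npm1, a nucleolar chaperone of ribosome assembly, rose in BALB/c and DBA mice at day 3 by 0.51 and 0.55 and in DBA mice at day 18 by 0.52. Pabpc1, the poly(A)-binding protein, rose by 0.56 in DBA mice at day 3. Nap1l1 changed by -0.68 in F1 mice at day 3, the largest change of the list there. Eef1a1, the elongation factor that brings transfer RNA, changed by -0.35 (adjusted p 0.42), -0.37 (0.376) and -0.59 (0.0778) in BALB/c and F1 mice at day 3 and BALB/c mice at day 18, all short of the threshold.

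Of 73 tested ribosome biogenesis factors, 32 rose and 4 fell in DBA mice at day 18, with a median change of 0.29, among them Heatr1 (0.97), Noc4l (0.94), Tsr1 (0.85) and Nop58 (0.80), a core protein of the particles that methylate ribosomal RNA. In BALB/c mice at day 18 2 rose and 20 fell, with a median of -0.08, and 9 rose and 17 fell without the array that stood apart. At day 3 7 rose and 7 fell in BALB/c, 6 and 9 in F1 and 9 and 4 in DBA mice, against 12 and 11, 6 and 10, and 11 and 8 without that array. Nop58 rose by 0.80 in BALB/c and 0.94 in DBA mice at day 3, and Rcl1, a pre-ribosomal RNA processing factor, fell by 0.80, 0.99 and 0.91 in BALB/c, F1 and DBA mice. Noc4l rose by 0.88, 0.75 and 0.58 in the same order. Rbm28 changed by -1.36 in BALB/c and -1.14 in F1 mice at day 3, the largest changes of the list there, and Nol6 by -0.79 in F1 mice. In BALB/c mice at day 18 the largest changes were -0.95 for Rcl1, -0.69 for Bysl, -0.58 for Nop10 and -0.55 for Rbm28. Of 15 tested genes of RNA polymerase I, which transcribes ribosomal RNA, 2, 2, 2, 0 and 6 rose and 0, 2, 1, 1 and 2 fell in the 5 responses in the order above. Ttf1, its termination factor, rose at day 3 by 0.50, 0.63 and 0.92 in BALB/c, F1 and DBA mice.

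Of 31 tested initiation factors, 0, 2, 2, 0 and 3 rose and 3, 5, 3, 9 and 3 fell, against 2, 7, 5, 2 and 5 higher and 5, 6, 5, 9 and 7 lower without the array that stood apart. Eif4ebp1, the repressor that binds the cap-binding protein and that mTOR inactivates, fell in all 5 responses, by 0.80, 0.77 and 0.50 at day 3 and by 0.93 and 1.04 at day 18 (adjusted p from 9.56e-07 to 0.00945). Of 17 tested regulators of mTOR and the TOP tract, 2, 3, 1, 1 and 3 rose and 6, 4, 1, 8 and 5 fell, against 2, 3, 3, 4 and 4 higher and 6, 6, 2, 8 and 6 lower without that array. Deptor, an inhibitor of mTOR, fell by 1.32 and 1.54 in BALB/c and F1 mice at day 3 and by 1.49 and 2.51 in BALB/c and DBA mice at day 18, with a change of -0.70 (adjusted p 0.125) in DBA mice at day 3. Myc rose by 0.89, 0.54 and 0.63 at day 3 and by 1.15 in DBA mice at day 18. Mtor itself changed by -0.54 in DBA mice at day 3 and by -0.59 in BALB/c mice at day 18. Rheb changed by -0.43 in BALB/c mice at day 3 and Mycn by -0.79 in BALB/c mice at day 18. Ddit4 changed by -0.88 in F1 mice at day 3 and by 1.03 in DBA mice at day 18. Max rose by 0.74 in F1 mice at day 3 and by 0.71 and 0.84 in BALB/c and DBA mice at day 18. The mitochondrial ribosomal proteins, the counterparts in the separate ribosome of mitochondria mostly fell where they passed: of 76 tested, 41, 18, 52, 50 and 58 fell and 1, 2, 0, 1 and 1 rose, with median changes of -0.29, -0.16, -0.42, -0.38 and -0.44. Fau, the 1 tested ribosome-borne protein outside the symbol rule, changed by -0.06 to 0.40 with adjusted p from 0.172 to 0.822, and passed in DBA mice at day 3 and BALB/c mice at day 18 without the array that stood apart.

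Markers of incoming and dividing cells moved with the same comparisons. Of 21 tested proliferation genes 20 rose in each of the 5 responses, with median changes from 1.34 to 2.93, and of 14 macrophage markers 12, 12, 13, 14 and 14 rose. Macrophage markers summed to 95197 ± 7124 in treated and 41345 ± 3294 in untreated BALB/c mice, to 100970 ± 9268 and 41758 ± 6616 in treated and untreated F1 mice and to 94871 ± 15640 and 33992 ± 1197 in treated and untreated DBA mice at day 3 (SD, n = 3 each). Of 12 neutrophil markers 8, 7, 5, 11 and 12 rose, and of 11 plasma cell markers, a cell type rich in ribosomes, 7, 5, 4, 7 and 7 rose, with 1 lower in DBA mice at day 3, against 8, 9, 7, 8 and 10 higher without the array that stood apart. T and NK cell markers rose in 6, 10, 3, 12 and 11 of 15, and B cell markers in 0, 3, 0, 3 and 1 of 10. Of 14 adipocyte markers 10, 9, 2, 14 and 12 fell, and of 10 endothelial markers 4, 5, 3, 7 and 10. The proliferation median was 2.93 in BALB/c and 1.80 in DBA mice at day 3 on the deposited scale. The members' median was 0.08 and 0.37 on that scale, and 0.24 and 0.27 after quantile normalization. No marker of pancreatic acinar cells passed in any response with all arrays, and 1 rose in BALB/c mice at day 3 and 2 in BALB/c mice at day 18 without the array that stood apart. The part of these cells in the members' changes was not tested.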

How the data were processed

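Total RNA of mouse mesentery was amplified and hybridised to 1 array per sample, per the labels' protocols. The authors deposited MAS5 signal intensity values on a linear scale, and GCOS and MAS5 are named in the submitters' processing notes, without versions. The 2% trimmed mean is 500 on every array, and 13 values are 0. Gene symbols came from the platform annotation: of 45101 probe sets, 34958 named 1 gene, 932 several and 9211 none. The 64 array control probe sets were left out, and 23198 probe sets with a signal above 103.7, the median of all values, on at least 3 arrays were kept, each gene being represented by its brightest. Intensities were tested as log2(signal + 24.9), the offset being the 25th percentile of all deposited values, which understates changes of dim genes.

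limma 3.58.1 in R 4.3.3 was fitted to all 32 arrays with 1 mean for each group and title code run (10 means, 22 residual degrees of freedom) and an intensity trend, with Benjamini-Hochberg adjustment over 13016 genes and a threshold of 0.05. The procedure was tested on simulated data. The number of arrays limits the precision. The series names an ANOVA, and the linear model used here is of that kind. Genes named are the 8 members with the largest increase and the 8 with the largest decrease among those past the threshold in a response, up to 5 each way for a difference, the stalk and paralog members, Rps6, the 3 brightest and 3 dimmest members, and up to 4 genes per pathway list. Probe sets of these genes may also bind pseudogene transcripts. The members and lists were chosen with earlier results of these data known. Alternatives were other filters, offsets, scalings, fits and probe set rules, and leaving out each array.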

Additional observations from a re-analysis of the deposited data

Results flagged for a closer look

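Values of the groups with 4 arrays were examined for an array far from the other 3, by the gap to its nearest neighbour as a share of the group's range. Of 34 examined, 9 passed the 95% limit, where chance gives about 1 in 20 (5%). Of these, 8 were on untreated BALB/c replicate 2, which was the highest each time. The mean log2 signal of the tested members was 14.21 there, against 12.73 to 12.77 on the other 3 arrays, a gap of 0.976 of the range. Rplp0 was 14.89 against 13.46 to 13.55 (0.938), Rps3a1 15.15 against 13.95 to 14.09 (0.886), Rplp2 15.24 against 14.34 to 14.44 (0.889) and Rpsa 15.06 against 13.61 to 13.74 (0.91). Rps6 was 9.58 against 8.90 to 8.99 (0.867), Rpl41 16.73 against 14.21 to 14.30 (0.967) and Rps29 16.23 against 14.19 to 14.26 (0.964). The same array held the highest pancreatic acinar signal and the highest 3′ to 5′ ratio of beta-actin of its codes, and the part of these in the member signals was not tested. The remaining value was Rps29 on treated BALB/c replicate 2 at day 18, the lowest of its group at 14.22 against 14.43 to 14.44 (0.95).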

How the results depend on the processing

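Counts below are members past the threshold, out of 45, and medians are of the members' log2 changes. Shares of all genes were counted on the deposited scale only, with all arrays and without untreated BALB/c replicate 2. The other counts have no such share beside them. Leaving out each array in turn gave 2 to 9 higher members in BALB/c, 1 to 10 in F1 and 5 to 34 in DBA mice at day 3, and 1 to 14 in BALB/c and 4 to 18 in DBA mice at day 18, the highest each time without untreated BALB/c replicate 2. The BALB/c median at day 3, 0.08, ranged from 0.0226 (without untreated replicate 5) to 0.11, the DBA median at day 3 from 0.34 to 0.46, the F1 median from -0.00 to 0.15 and the BALB/c median at day 18 from -0.36 to 0.16. Lower members numbered 0 to 3 in BALB/c mice at day 18 (3 without untreated replicate 3) and 0 to 1 in DBA mice at day 18. Differing members numbered 0 to 5 for F1 minus DBA, 0 to 1 for DBA day 18 minus day 3, 2 to 6 for untreated DBA minus BALB/c and 1 to 7 for untreated F1 minus BALB/c. The median of BALB/c minus DBA at day 18 ranged from -0.58 to -0.06 and that of BALB/c day 18 minus day 3 from -0.47 to 0.07.

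Quantile normalization gave 24, 19 and 25 higher members in BALB/c, F1 and DBA mice at day 3, 13 higher and 1 lower in BALB/c and 24 higher in DBA mice at day 18, with medians of 0.24 in BALB/c and 0.27 in DBA mice at day 3. The medians of BALB/c minus DBA and F1 minus DBA at day 3 were -0.0245 and -0.0726, of DBA day 18 minus day 3 -0.0386, and of untreated DBA and F1 minus BALB/c -0.0353 and -0.0296. It called 1 member for BALB/c minus DBA at day 18, 5 for untreated DBA minus BALB/c and 2 for untreated F1 minus DBA. With untreated BALB/c replicate 2 also left out, 31, 25, 32, 21 and 24 were higher in the same order and 1 lower in DBA mice at day 18, with medians of 0.24 in BALB/c and 0.24 in DBA mice at day 3. The medians of BALB/c minus DBA were -0.0219 at day 3 and -0.0435 at day 18, of F1 minus DBA -0.0591, of DBA day 18 minus day 3 -0.037, and of untreated DBA and F1 minus BALB/c -0.0328 and -0.0256. It called 1 member for BALB/c minus DBA at day 18, 2 for F1 minus DBA, 6 for untreated DBA minus BALB/c and 3 for untreated F1 minus DBA.

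Array weights gave 10 higher and 1 lower in BALB/c, 13 and 2 in F1 and 35 higher in DBA mice at day 3, and 8 higher in BALB/c and 20 higher and 1 lower in DBA mice at day 18. They called 8 and 1 for BALB/c minus DBA at days 3 and 18, 13 for F1 minus DBA, 2 for DBA day 18 minus day 3, and 6, 22 and 6 for untreated DBA minus BALB/c, F1 minus BALB/c and F1 minus DBA. Fitting each comparison alone gave 10 higher in BALB/c and 36 in DBA mice at day 3, 0 in BALB/c and 22 higher and 1 lower in DBA mice at day 18, 1 for BALB/c minus DBA at day 3 and 5 for untreated DBA minus BALB/c. The 0 stands beside 4 members at an unadjusted p under 0.05 in the fit of all arrays. Pooling untreated arrays over codes gave a BALB/c median of 0.0077 at day 3, 1 higher and 1 lower in BALB/c and 10 higher with a median of 0.28 in DBA mice at day 18, 2 called and a median of -0.0446 for DBA day 18 minus day 3, and 1 for untreated F1 minus BALB/c. The mean over probe sets gave a BALB/c median of 0.15 at day 3, 1 higher in BALB/c and a median of 0.26 in DBA mice at day 18. Preferring probe sets with the plain suffix gave 5, 5 and 4 higher in BALB/c and F1 mice at day 3 and BALB/c mice at day 18, and 4 for untreated DBA minus BALB/c. Median centring gave 4 for untreated DBA minus BALB/c, and for untreated F1 minus BALB/c 1 was called by it, without the dim filter, without the intensity trend and by the mean over probe sets. Testing probe sets singly gave 7, 10, 14, 5 and 12 higher sets.

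Of 3680 single-member results, 3519 stayed on their side of the threshold, and changes of sign where neither value passed are counted among them. A further 92 passed anew, 55 no longer passed and 14 changed sign with a value past the threshold before or after. Those 14 were, under quantile normalization, Rpl41 (0.24) and Rps29 (0.17) in BALB/c mice at day 3 and Rps3a1 (0.31), Rpl41 (0.20) and Rps29 (0.31) in BALB/c mice at day 18; with the array also left out, Rpl41 (0.23) and Rps29 (0.17) at day 3 and Rplp0 (0.18), Rps3a1 (0.23), Rpsa (0.20), Rpl41 (0.23) and Rps29 (0.28) at day 18; and without the array alone, Rps3a1 (0.18) and Rpsa (0.21) at day 18, whose values over all arrays left out in turn ranged from -0.2148 to 0.18 and from -0.2706 to 0.21. Apart from the array left out, the cause was not tested. The combined setting and the single probe sets were added after seeing the data. No paired analysis was possible because the labels give no replicate numbers that pair treated with untreated arrays.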
